A study of Mus musculus with 36 samples.

Results

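The genes described here are 10 components of antigen presentation by major histocompatibility complex (MHC) class I: H2-K1, H2-D1, B2m, Tap1, Tap2, Tapbp, Psmb8, Psmb9, Psmb10 and Nlrc5. They were taken by gene name from the 3 deposited expression tables, which share 55573 Ensembl genes, and each of the 10 was found in every table and in all 36 libraries. The libraries are RNA sequencing of cells from wild-type mice, in 12 groups of 3. Mice received OMV-SIRP-G, OMV-SIRP or phosphate-buffered saline (PBS). OMV stands for outer membrane vesicle, a particle shed by bacteria, and the labels do not say what SIRP and G denote. Granulocyte-macrophage progenitors (GMP) and monocytes came from the marrow of bones, and macrophages labelled as tumour-associated (TAM) from tumours of mice bearing B16-F10, a melanoma line, or MC38, a colon carcinoma line. The sources used here give no ages, doses or times of sampling. The series title speaks of macrophages being altered from the marrow to the tumour, and the groups set each vesicle preparation against PBS, and the 2 preparations against each other, in the same population. The design text mentions pooling of 3 samples a group in a way that can be read as pools or as separate libraries, so the p-values below measure the spread between these libraries, which may be technical.

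MHC class I molecules show fragments of a cell's own proteins to CD8 T cells. The proteasome cuts proteins into peptides, the TAP transporter carries the peptides into the endoplasmic reticulum, and tapasin helps to load them onto a heavy chain bound to beta-2 microglobulin. Interferons raise nearly all of these components together, partly by exchanging the catalytic proteasome subunits for immunoproteasome subunits, and the coactivator Nlrc5 works on the promoters of class I genes. Macrophages and their precursors express the pathway constitutively and can increase it after interferon gamma.

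Most of the 10 genes lie close together, in the MHC on mouse chromosome 17. In the deposited coordinates (GRCm38), H2-K1 (ENSMUSG00000061232) spans chr17:33996017-34000347 on the minus strand and H2-D1 (ENSMUSG00000073411) spans chr17:35262730-35267499 on the plus strand. Between them lie Psmb9 (ENSMUSG00000096727, chr17:34181987-34187764, minus strand), Tap1 (ENSMUSG00000037321, chr17:34187553-34197225, plus strand), Psmb8 (ENSMUSG00000024338, chr17:34197721-34201454, plus strand) and Tap2 (ENSMUSG00000024339, chr17:34203527-34216321, plus strand). Tapbp (ENSMUSG00000024308) is at chr17:33915899-33929292 on the plus strand. Outside the MHC, B2m (ENSMUSG00000060802) is at chr2:122147686-122153083 on the plus strand, Psmb10 (ENSMUSG00000031897) at chr8:105935735-105938444 on the minus strand and Nlrc5 (ENSMUSG00000074151) at chr8:94434356-94527272 on the plus strand. Psmb9 and Tap1 are transcribed away from each other, and their models overlap by 212 bases. It is not stated whether reads were counted by strand. Of the 50-base words in the exons, 9.63% of H2-K1 and 12.8% of H2-D1 also occur in another gene. Part of the signal of these close relatives could thus be split between class I genes. The share was 23.2% for Tapbp, 11.9% for Psmb8 and 11.6% for Tap2, each shared most with an overlapping noncoding model, and 0% for B2m and Psmb10. B2m and Psmb10 are overlapped over their whole span by models on the other strand. These are Patl2 and Gm16156, which reached at most 0.819 and 1.45 FPKM in any library. Tapbp is also overlapped by a protein-coding model on its own strand, Zbtb22, which ran from 2.71 to 25.4 FPKM over the libraries.

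The promoters of H2-K1, H2-D1, B2m and Tap1 are shown because they start the peptide receptor and the transporter, and because the first 3 hold the motifs by which NF-kB and interferon regulatory factors (IRF) are known to reach class I genes. Each window is RefSeq sequence of GRCm38.p6 and runs from 250 bases before the start site to 50 bases after it, 300 bases in all, written 5′ to 3′ along the gene. Capitals mark matches, on either strand, to NF-kB, to the IRF core AANNGAAA and to the cyclic AMP response element (CRE) half-site TGACG. The H2-K1 window is chr17:34000298-34000597 (minus strand), the H2-D1 window chr17:35262844-35263143 (plus strand), the B2m window chr2:122147437-122147736 (plus strand) and the Tap1 window chr17:34187306-34187605 (plus strand).
H2-K1: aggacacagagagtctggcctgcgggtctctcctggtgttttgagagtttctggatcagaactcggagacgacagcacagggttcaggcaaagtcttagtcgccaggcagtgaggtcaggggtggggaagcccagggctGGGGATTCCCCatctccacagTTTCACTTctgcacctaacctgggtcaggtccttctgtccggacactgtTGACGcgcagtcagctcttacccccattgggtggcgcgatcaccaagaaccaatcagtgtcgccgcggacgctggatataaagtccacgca
H2-D1: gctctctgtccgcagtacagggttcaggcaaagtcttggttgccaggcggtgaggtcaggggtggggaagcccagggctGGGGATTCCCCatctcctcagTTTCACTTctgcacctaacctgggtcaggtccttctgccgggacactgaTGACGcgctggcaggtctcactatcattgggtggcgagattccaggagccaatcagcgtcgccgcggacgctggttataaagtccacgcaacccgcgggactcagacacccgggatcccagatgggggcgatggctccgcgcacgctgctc
B2m: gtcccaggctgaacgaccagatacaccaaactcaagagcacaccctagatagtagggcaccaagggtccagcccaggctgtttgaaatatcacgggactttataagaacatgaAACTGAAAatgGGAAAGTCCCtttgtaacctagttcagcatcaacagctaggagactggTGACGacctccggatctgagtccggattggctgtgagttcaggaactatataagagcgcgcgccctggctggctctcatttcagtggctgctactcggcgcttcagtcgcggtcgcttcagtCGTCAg
Tap1: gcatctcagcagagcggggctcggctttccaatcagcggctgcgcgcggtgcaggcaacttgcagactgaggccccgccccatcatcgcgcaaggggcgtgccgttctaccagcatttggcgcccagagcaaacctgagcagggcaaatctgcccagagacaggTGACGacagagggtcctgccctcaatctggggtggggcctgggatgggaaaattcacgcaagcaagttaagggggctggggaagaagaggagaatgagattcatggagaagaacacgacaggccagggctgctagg

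In H2-K1 the NF-kB match began 111 bases before the start site, the IRF core 90 bases before it and the CRE half-site 41 bases before it. H2-K1 has 2 windows, and the one used has its start site at the 5′ end of the deposited gene model. The distances depend on that choice. In H2-D1 the same 3 motifs stood in the same order, with NF-kB 171, the IRF core 150 and the CRE half-site 101 bases before the RefSeq start site, which lies 364 bases inside the deposited gene model. Set against each other with that shift of 60 bases and no gaps, the 2 windows were identical at 176 of 240 bases (73.3%). B2m held an IRF core 137 bases and an NF-kB match 126 bases before its start site, in the other order, and CRE half-sites 78 bases before it and 44 bases after it. The Tap1 window had no NF-kB or IRF match and had a CRE half-site 86 bases before the start site. It shares 275 of its 300 bases with the window of Psmb9 on the other strand. Windows were matched by symbol for 8 of the 10 genes, and not for Tap2 and Nlrc5. The IRF core was in 3 of the 8 windows and in 23.9% of all 32544 mouse promoter windows of this length. The NF-kB motif was in 3 of 8 and in 8.49% of all windows, and the CRE half-site in 5 of 8 and in 20.9% of all windows. The GAS motif TTCNNNGAA was in the Psmb8 window of the 8 and in 8.33% of all windows. The CCAAT box, CCAAT, was in 6 of 8 and in 37.4% of all windows. The CRE half-site and the CCAAT box of the Tap1 window are the same bases as those of the Psmb9 window. Each of these shared sites is thus counted for both genes. The Psmb10 window held none of these 5 motifs. A match describes letters in a window and does not show that a factor binds there.

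**Figure D1:**
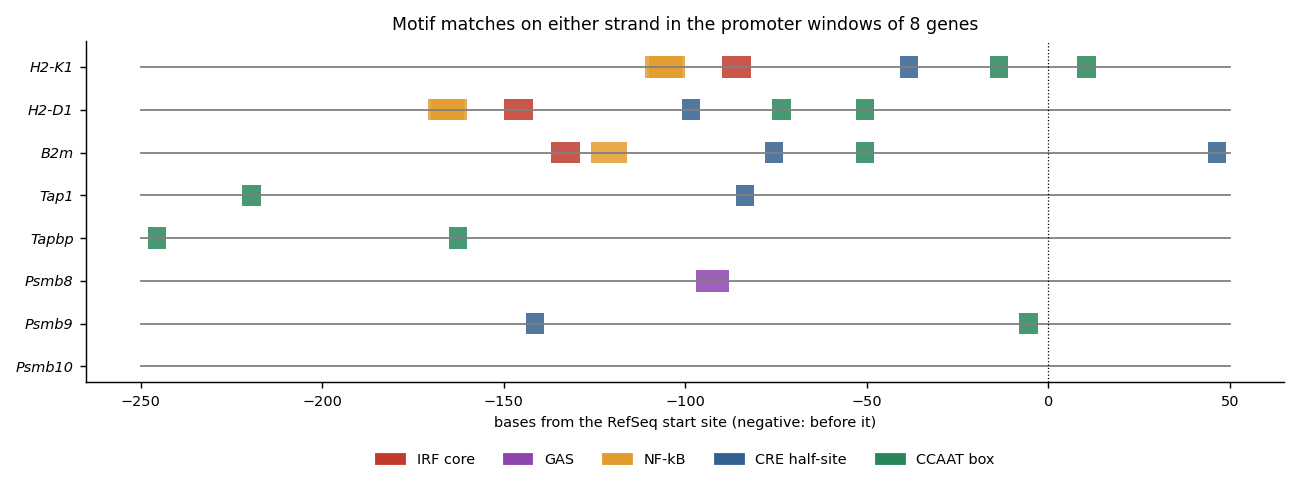
Positions of motif matches, on either strand, along the 300-base promoter windows of the 8 genes that have one, in bases from the RefSeq start site (dotted line, negative before it). H2-K1, H2-D1 and B2m carry NF-kB and IRF matches side by side, 8 of 8 windows are drawn, and the line for Psmb10 carries no match.

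Some libraries stood apart from their groups or their labels, and the values below should be read with that in view. Gene-assigned reads numbered 13036567 to 19822660 a library. Over all genes, the correlation between replicates was lowest in MC38 TAM (0.81 to 0.95), followed by monocytes (0.925 to 0.988), B16 TAM (0.929 to 0.976) and GMP (0.98 to 0.989). In monocytes, PBS replicate 2 had a summed FPKM of 1760 over 6 GMP markers, against 778 to 789 in the other PBS libraries, and of 382 against 122 to 135 over 5 erythroid markers. In MC38 TAM the 7 macrophage markers summed to 631 to 663 FPKM in OMV-SIRP-G libraries, 632 to 1020 in OMV-SIRP libraries and 40 to 76.9 in PBS libraries, where Mertk was at 0. The levels of the MC38 TAM PBS libraries therefore go against a macrophage label, and comparisons with them are between libraries labelled TAM. The NK cell markers in MC38 TAM summed to 436 to 500, 70.8 to 602 and 21.8 to 35.9 FPKM in OMV-SIRP-G, OMV-SIRP and PBS libraries. In B16 TAM, macrophage markers summed to 3690 to 3900, 1820 to 2340 and 1930 to 2190 FPKM, and melanocyte markers to 800 to 899, 2370 to 2610 and 2880 to 3150, in the same order of treatments. T cell markers in B16 TAM summed to 39.5 to 40.7, 37.1 to 47.8 and 87.2 to 110 FPKM in that order, and in MC38 TAM to 101 to 116, 68.1 to 70.3 and 40.5 to 81 FPKM, where 3 of the 6 were called higher with OMV-SIRP-G against PBS. Mitochondrial genes took 6.06% to 6.46%, 15.2% to 21.5% and 2.98% to 5.07% of reads in MC38 TAM, and 13.02% to 14.2%, 18.45% to 21.3% and 15.2% to 19.7% in B16 TAM. MC38 TAM OMV-SIRP replicate 2 and PBS replicate 3 correlated least with their groups. These are bulk libraries, in which fewer cells of a type and less RNA per cell cannot be told apart.

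**Figure D2:**
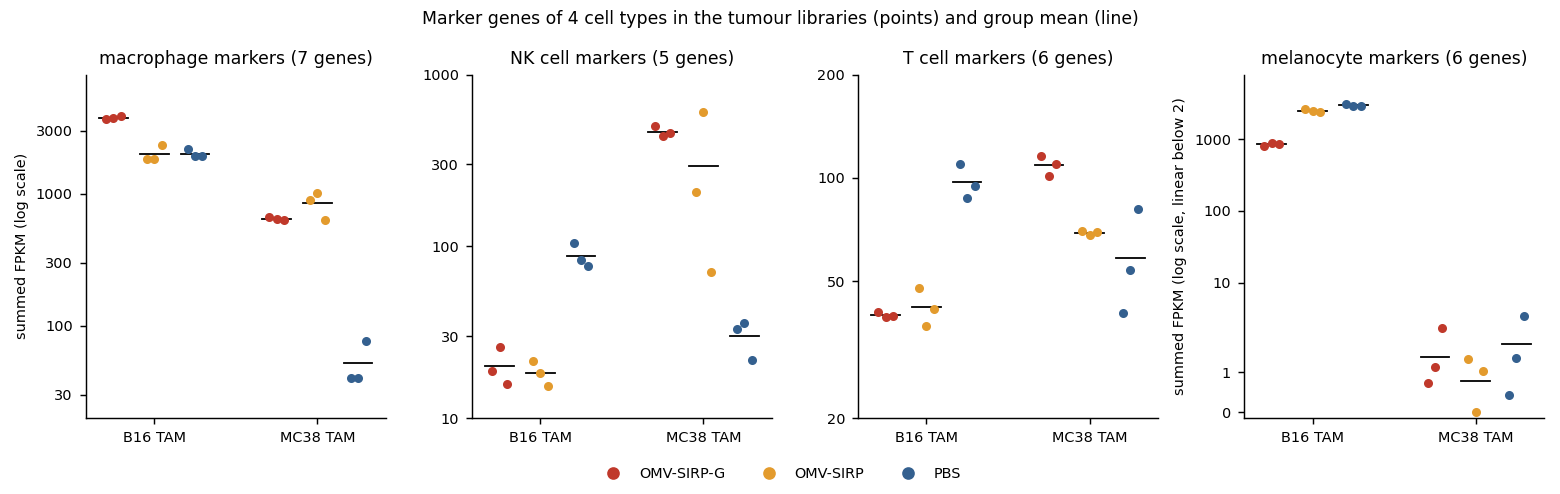
Summed FPKM of marker genes of macrophages, NK cells, T cells and melanocytes in each tumour library (points, log axes, the last one linear below 2) with group means (lines), for OMV-SIRP-G, OMV-SIRP and PBS. The MC38 TAM PBS libraries lie at 40 to 76.9 for macrophage markers, under every other tumour library, and the B16 TAM OMV-SIRP-G libraries lie at 800 to 899 for melanocyte markers, under the other B16 TAM libraries.

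FPKM (fragments scaled to gene length and sequencing depth, as deposited) allows levels to be compared between genes. B2m, the small subunit that every class I molecule needs, was the highest of the 10 genes in 36 of 36 libraries. H2-D1 came second in 33 libraries and H2-K1 in the other 3. Nlrc5 was the lowest of the 10 in 33 libraries and Psmb9 in 3. Under PBS, B2m averaged 2407 ± 167 FPKM in MC38 TAM, 2164 ± 643 in monocytes, 1671 ± 121 in B16 TAM and 1165 ± 145 in GMP (SD, n = 3 each). Libraries of neighbouring populations in that order overlapped, except that B16 TAM stood above GMP. H2-K1 followed monocytes, B16 TAM, MC38 TAM and GMP, at 702, 662, 642 and 396 FPKM, and GMP alone stood below its neighbour without overlap. For H2-D1 the same order gave 1166, 946, 602 and 541 FPKM, with a gap between B16 TAM and MC38 TAM. The 3 tables were scaled separately by the authors, so these orders across tumour models and marrow are descriptions.

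The order of populations under PBS differed among the smaller components. Tap1 averaged 70.5 ± 6.84 FPKM in monocytes, 55.7 ± 5.35 in B16 TAM, 35.3 ± 4.34 in MC38 TAM and 32.6 ± 1.38 in GMP, and the last 2 overlapped. Tap2, the other chain of the same transporter, was highest in GMP at 43.1 ± 1.88 FPKM and lowest in MC38 TAM at 13.8 ± 2.89. Tapbp was highest in monocytes at 135 ± 34.2 FPKM, against 68.04 in GMP, 66.6 in B16 TAM and 53.7 in MC38 TAM, which overlapped in that order. The immunoproteasome subunits were lowest in MC38 TAM PBS libraries without overlap with the next population: Psmb8 averaged 17.5 ± 2.84 FPKM there and 30.9 ± 3.48 in GMP, Psmb9 11.2 ± 2.68 and 20.4 ± 1.61, and Psmb10 19.5 ± 5.35 and 38.2 ± 5.65. Nlrc5 went the other way on average, with 12.5 ± 2.02 FPKM in MC38 TAM, 9.62 ± 4.08 in monocytes, 8.36 ± 0.391 in B16 TAM and 5.33 ± 0.778 in GMP. Its libraries overlapped between neighbouring populations in that order, except that B16 TAM stood above GMP.

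**Figure D3:**
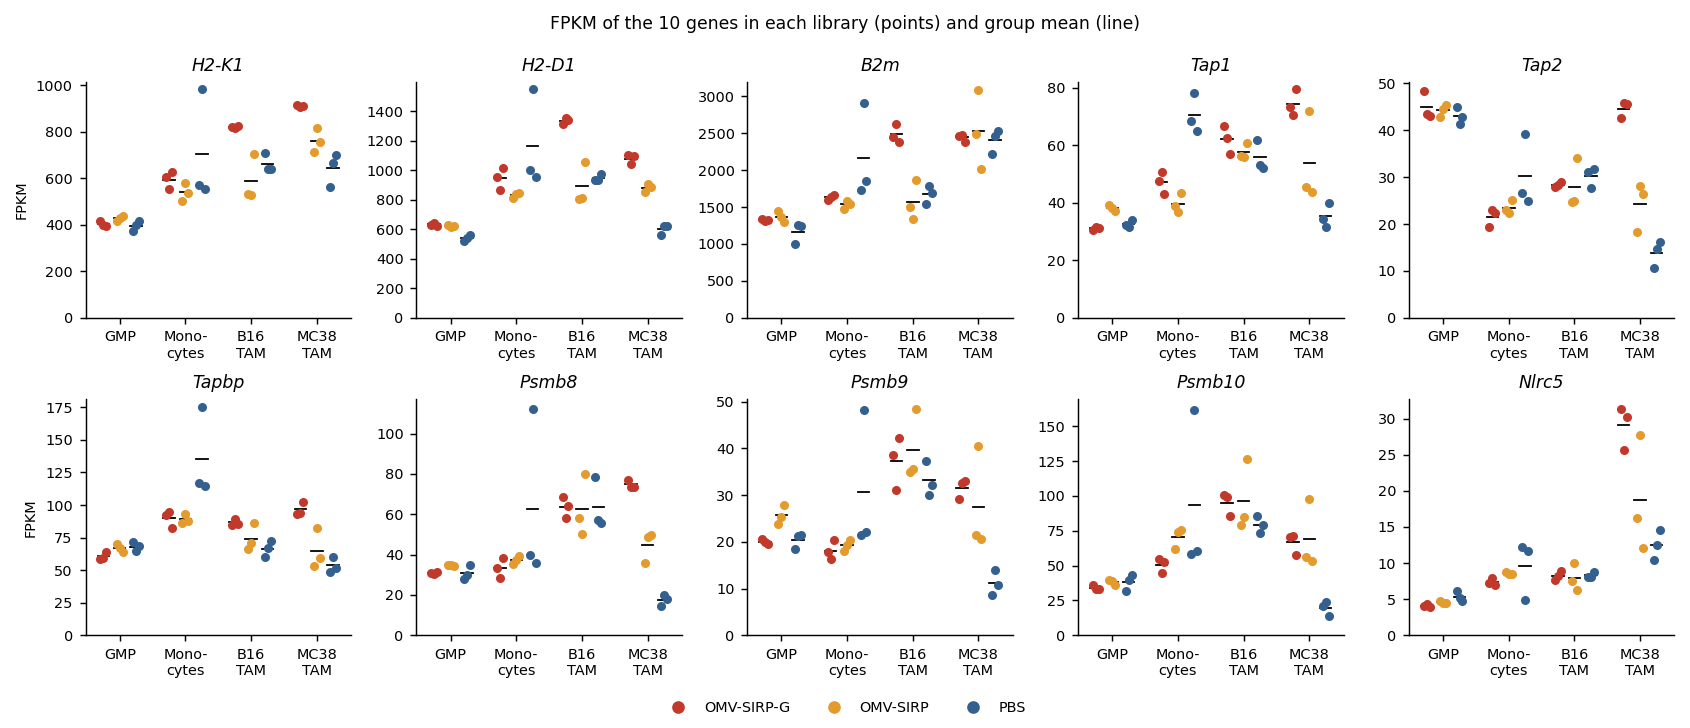
FPKM of the 10 genes in each of the 36 libraries (points) with group means (lines), by population and, within a population, for OMV-SIRP-G, OMV-SIRP and PBS; each panel has its own linear axis from 0. The MC38 TAM groups separate for Psmb8, at 74.7, 44.7 and 17.5 FPKM on average, and 1 monocyte PBS library lies above the other 8 monocyte libraries for 9 genes and below them for Nlrc5.

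Treatments were compared within each population with limma on log2(FPKM + 1), and a gene is said to have risen or fallen where its Benjamini-Hochberg adjusted p over all genes tested was under 0.05. All 10 genes passed the filter on low values in every population. In MC38 TAM, 9 of the 10 rose with OMV-SIRP-G against PBS, where 13.1% of all genes tested rose, and 5 rose with OMV-SIRP, where 7.4% did. In B16 TAM, 2 rose with OMV-SIRP-G against PBS, where 7.83% of genes rose, and 0 of 10 changed with OMV-SIRP, where 1.45% of genes changed. In monocytes, 1 fell with OMV-SIRP-G and 1 with OMV-SIRP, where 2.14% and 5.46% of genes fell. In GMP, 1 rose and 1 fell with OMV-SIRP-G against PBS, where 6.76% of genes rose and 5.22% fell, and 3 rose with OMV-SIRP, where 10.6% did. The shares of the 10 genes in MC38 TAM are several times the background, and the counts of 1 to 3 genes in GMP, monocytes and B16 TAM are too small to be set apart from it.

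Between the preparations, OMV-SIRP-G against OMV-SIRP, 3 of the 10 rose in B16 TAM, where 6.35% of genes rose, and 2 fell in GMP, where 8.12% of genes fell. None of the 10 changed in monocytes or MC38 TAM, where 2.44% and 0.383% of genes changed. At an unadjusted p under 0.05 the limma count was 0 in monocytes and 7 in MC38 TAM, all 7 higher with OMV-SIRP-G, and it was 0 for OMV-SIRP against PBS in B16 TAM. The share of all genes at that unadjusted threshold is not given here, so these counts cannot be set against a background. A limma voom fit of the recovered reads called 0 of the 10 in each of these 3 comparisons. The MC38 TAM groups did not overlap for 5 of the 10, higher with OMV-SIRP-G, beside 12.4% of all genes tested.

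The median log2 change of the 10 genes against PBS in MC38 TAM was 1.11 with OMV-SIRP-G and 0.56 with OMV-SIRP, beside medians over all genes of 0.07 and 0.03. In monocytes it was -0.50 with OMV-SIRP-G and -0.45 with OMV-SIRP, beside -0.01 and -0.03, with all 10 values below 0 in both. In B16 TAM it was 0.21 and -0.06, and in GMP -0.01 and 0.14. Both treatments of a population are compared with the same PBS libraries. Without monocyte PBS replicate 2, the monocyte calls went to 3 lower with OMV-SIRP-G and 4 lower with OMV-SIRP, the medians to -0.24 and -0.20, and 9 of the 10 values were below 0 in each. Over all genes tested the shares that fell in that fit were higher too, at 6.82% with OMV-SIRP-G and 17.4% with OMV-SIRP. With MC38 TAM OMV-SIRP replicate 2 and PBS replicate 3 left out, 9 genes rose with OMV-SIRP-G and 4 with OMV-SIRP against PBS, and 4 rose with OMV-SIRP-G against OMV-SIRP. The shares of all genes that rose in that fit were 20.2%, 10.2% and 2.35% in these 3 comparisons. The deposited FPKM carry a scaling between libraries beyond their totals, and with library totals in its place the median change of all genes with OMV-SIRP against PBS was -0.27 in MC38 TAM and 0.11 in monocytes. On that scale 8 of the 10 genes rose in MC38 TAM with OMV-SIRP-G and 2, Psmb8 and Psmb10, with OMV-SIRP, whose member median was 0.18. Over all genes, 1551 rose on that scale with OMV-SIRP-G and 697 with OMV-SIRP, in place of 1843 and 1042 of 14089 on the deposited scale. H2-K1 and B2m then had changes of -0.13 and -0.33 with OMV-SIRP (adjusted p 0.462 and 0.0787).

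**Figure D4:**
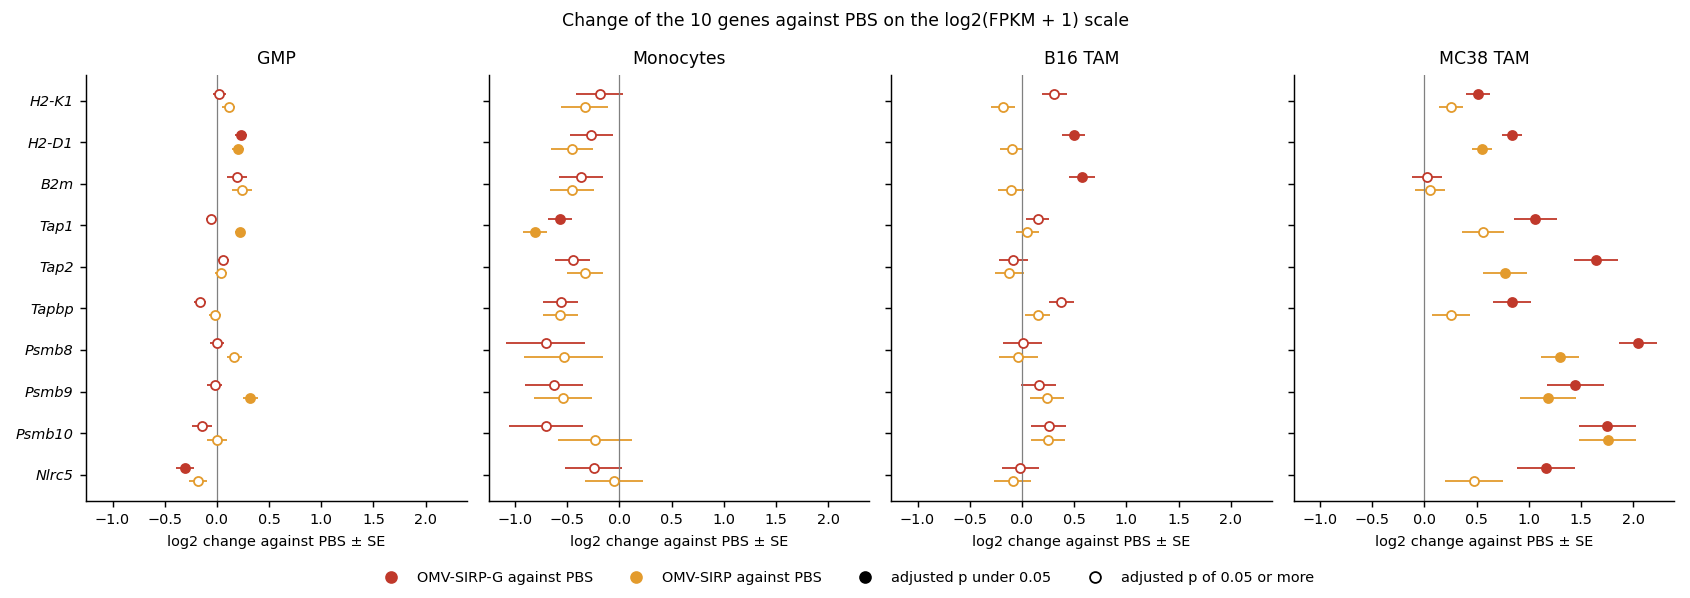
Log2 change of the 10 genes against PBS on the log2(FPKM + 1) scale, with standard errors, for OMV-SIRP-G and OMV-SIRP in each population; filled points have a limma adjusted p under 0.05. In MC38 TAM the OMV-SIRP-G changes run up to 2.05 for Psmb8 while B2m stays at 0.02, and in monocytes all 20 points lie below 0.

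The heavy chains H2-K1 and H2-D1 are the classical class I molecules that carry peptide to the cell surface. In MC38 TAM, H2-D1 had 1101, 1043 and 1093 FPKM in OMV-SIRP-G libraries, 853, 906 and 886 in OMV-SIRP libraries and 561, 624 and 621 in PBS libraries. The 3 groups did not overlap and were ordered OMV-SIRP-G, OMV-SIRP, PBS. H2-D1 rose by 0.84 ± 0.10 on the log2 scale with OMV-SIRP-G (limma adjusted p 0.00099) and by 0.55 ± 0.10 with OMV-SIRP (adjusted p 0.00951) against PBS. H2-K1 had 916, 904 and 911 FPKM in OMV-SIRP-G libraries, 714, 814 and 757 in OMV-SIRP libraries and 562, 665 and 699 in PBS libraries. Again no groups overlapped, and H2-K1 rose by 0.51 ± 0.11 with OMV-SIRP-G (adjusted p 0.0151), while its change of 0.25 ± 0.11 with OMV-SIRP missed the threshold (adjusted p 0.189). Leaving out any OMV-SIRP-G library or PBS replicate 1 ended the H2-K1 call, with adjusted p up to 0.0648. With library totals in place of the authors' scaling, the H2-D1 call for OMV-SIRP (adjusted p 0.299) and the H2-K1 call for OMV-SIRP-G (adjusted p 0.0811) were lost.

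B2m did not follow the heavy chains in MC38 TAM. It had 2466, 2483 and 2387 FPKM in OMV-SIRP-G libraries, 2486, 3092 and 2022 in OMV-SIRP libraries and 2219, 2466 and 2537 in PBS libraries, and all groups overlapped. Its log2 change was 0.02 ± 0.15 with OMV-SIRP-G (limma adjusted p 0.925) and 0.05 ± 0.15 with OMV-SIRP (adjusted p 0.842). B2m per unit of H2-K1 plus H2-D1 FPKM was thus 1.22, 1.28 and 1.19 in OMV-SIRP-G libraries, 1.59, 1.8 and 1.23 in OMV-SIRP libraries, and 1.98, 1.91 and 1.92 in PBS libraries. The OMV-SIRP-G and PBS ratios did not overlap. In the other populations the group means of this ratio lay between 1.04 and 1.31.

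In B16 TAM the heavy chains and B2m were higher together in OMV-SIRP-G libraries, and OMV-SIRP libraries overlapped with PBS for all 3. B2m had 2447, 2628 and 2379 FPKM in OMV-SIRP-G libraries, 1496, 1338 and 1860 in OMV-SIRP libraries and 1543, 1783 and 1688 in PBS libraries, so that OMV-SIRP-G stood above both other groups. It rose by 0.57 ± 0.12 against PBS (limma adjusted p 0.0106) and by 0.68 ± 0.12 against OMV-SIRP (adjusted p 0.00578), and kept both calls without any single library. H2-D1 had 1316, 1355 and 1337 FPKM in OMV-SIRP-G libraries, 805, 813 and 1055 in OMV-SIRP libraries and 934, 930.5 and 973 in PBS libraries. It rose by 0.50 ± 0.11 against PBS (adjusted p 0.0126, and 0.0506 without OMV-SIRP-G replicate 2) and by 0.60 ± 0.11 against OMV-SIRP (adjusted p 0.00662). H2-K1 had 821, 816 and 825 FPKM in OMV-SIRP-G libraries, 531, 528 and 703 in OMV-SIRP libraries and 707, 637 and 641 in PBS libraries. The OMV-SIRP-G libraries were the highest here too, and H2-K1 rose against OMV-SIRP by 0.50 ± 0.12 (adjusted p 0.0221), while 0.31 ± 0.12 against PBS missed the threshold (adjusted p 0.108). The H2-K1 call was lost without any OMV-SIRP-G library or without OMV-SIRP replicate 1 or 2, with adjusted p up to 0.0817. Macrophage markers were higher, and melanocyte markers and the mitochondrial share lower, in the same OMV-SIRP-G libraries, as given above. Against PBS, 6 of 6 T cell and 4 of 5 NK cell markers were also called lower in them, where 7.28% of all genes fell. Against OMV-SIRP, 0 of the T cell and 0 of the NK cell markers were called. The part of these markers and of the mitochondrial share in the result was not tested.

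In GMP the changes of the peptide receptor were small. H2-D1 had 629.6, 643 and 624 FPKM in OMV-SIRP-G libraries, 631, 618 and 620.4 in OMV-SIRP libraries and 519.6, 539 and 564 in PBS libraries. All 6 treated libraries were above the 3 PBS libraries, and H2-D1 rose by 0.23 ± 0.06 with OMV-SIRP-G (limma adjusted p 0.0326) and by 0.20 ± 0.06 with OMV-SIRP (adjusted p 0.0364). Each call was lost without PBS replicate 2 or without any library of its treated group, with adjusted p up to 0.131 and 0.115. Both were also lost in a fit of the compared groups alone (adjusted p 0.127 and 0.122), and with library totals in place of the authors' scaling the OMV-SIRP change was 0.10 (adjusted p 0.141). B2m had 1344, 1308 and 1323 FPKM with OMV-SIRP-G, 1450, 1362 and 1304 with OMV-SIRP and 998, 1259 and 1238 with PBS, and H2-K1 averaged 402 ± 11.2, 428 ± 10.6 and 396 ± 20.2. Neither passed the test: the B2m changes were 0.19 and 0.24 (adjusted p 0.247 and 0.119) with OMV-SIRP-G and OMV-SIRP, although both treated groups stood above PBS. A limma voom fit of the recovered reads did call B2m higher with OMV-SIRP (log2 change 0.24, adjusted p 0.0246). H2-K1 took a share of 38.9 ± 0.78%, 40.7 ± 0.82% and 42.2 ± 0.32% of H2-K1 plus H2-D1 FPKM in OMV-SIRP-G, OMV-SIRP and PBS libraries, with no overlap between either treated group and PBS. In MC38 TAM that share was 45.8 ± 0.56%, 46.3 ± 0.93% and 51.5 ± 1.45%.

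In monocytes PBS replicate 2 set the spread of all 3 genes. H2-D1 had 953, 869 and 1015 FPKM in OMV-SIRP-G libraries, 812, 837 and 842 in OMV-SIRP libraries and 1002, 1547 and 950.5 in PBS libraries. H2-K1 had 603, 553 and 625 FPKM in OMV-SIRP-G libraries, 503, 579 and 536 in OMV-SIRP libraries and 571, 983 and 554 in PBS libraries. PBS replicate 2 was the highest of the 9 libraries for both. B2m had 1595, 1631 and 1665 FPKM with OMV-SIRP-G, 1480, 1587 and 1544 with OMV-SIRP and 1738, 2903 and 1850 with PBS, so that both treated groups lay below the lowest PBS library. None of the 3 passed the test: the B2m changes were -0.37 ± 0.21 with OMV-SIRP-G (limma adjusted p 0.463) and -0.45 ± 0.21 with OMV-SIRP (adjusted p 0.249). Without PBS replicate 2, B2m fell by 0.22 with OMV-SIRP (adjusted p 0.0339), and its change with OMV-SIRP-G was -0.14 (adjusted p 0.22). The H2-D1 changes were then -0.05 with OMV-SIRP-G (adjusted p 0.738) and -0.23 with OMV-SIRP (adjusted p 0.051).

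Tap1 and Tap2 pair to form the peptide transporter, and Tapbp encodes tapasin, which tethers the transporter to empty class I molecules. In MC38 TAM, Tap2 had 42.6, 45.8 and 45.6 FPKM in OMV-SIRP-G libraries, 18.3, 28.2 and 26.4 in OMV-SIRP libraries and 10.6, 14.8 and 16.1 in PBS libraries. The groups were ordered without overlap, and Tap2 rose by 1.64 ± 0.21 with OMV-SIRP-G (limma adjusted p 0.00165) and by 0.77 ± 0.21 with OMV-SIRP (adjusted p 0.0493). The second call was lost without OMV-SIRP replicate 2 or 3 or PBS replicate 1 or 2, with adjusted p up to 0.128, and was 0.223 with library totals in place of the authors' scaling. Tap1 had 73.4, 70.3 and 79.6 FPKM in OMV-SIRP-G libraries, 45.5, 71.8 and 43.6 in OMV-SIRP libraries and 34.4, 31.5 and 40 in PBS libraries. OMV-SIRP replicate 2 stood with the OMV-SIRP-G libraries, and the other 2 OMV-SIRP libraries were nearer to PBS. Tap1 rose by 1.06 ± 0.20 with OMV-SIRP-G (adjusted p 0.00783), and its change of 0.56 ± 0.20 with OMV-SIRP missed the threshold (adjusted p 0.111). Tapbp had 93.5, 93.97 and 103 FPKM in OMV-SIRP-G libraries, 53.4, 82.3 and 59.3 in OMV-SIRP libraries and 48.9, 60.4 and 51.8 in PBS libraries. OMV-SIRP-G stood above both other groups, and Tapbp rose by 0.84 ± 0.18 against PBS (adjusted p 0.0124, and 0.0562 without OMV-SIRP-G replicate 3). Its change with OMV-SIRP was 0.25 ± 0.18 (adjusted p 0.39).

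Tap1 was the member that fell in monocytes. It had 47.7, 50.6 and 43.05 FPKM in OMV-SIRP-G libraries, 38.97, 36.8 and 43.2 in OMV-SIRP libraries and 68.5, 78.1 and 64.8 in PBS libraries. All 6 treated libraries were below all 3 PBS libraries. Tap1 fell by 0.57 ± 0.12 on the log2 scale with OMV-SIRP-G (limma adjusted p 0.0339) and by 0.81 ± 0.12 with OMV-SIRP (adjusted p 0.00516). The OMV-SIRP call held without any single library. The OMV-SIRP-G call was lost without any OMV-SIRP-G library or without PBS replicate 1 or 3, with adjusted p up to 0.153. Tapbp had 92.4, 94.5 and 82.7 FPKM with OMV-SIRP-G, 86.6, 93.5 and 88.1 with OMV-SIRP and 117, 175 and 114 with PBS. The treated libraries again lay below all PBS libraries, with changes of -0.56 ± 0.17 (adjusted p 0.14) with OMV-SIRP-G and -0.57 ± 0.17 (adjusted p 0.0794) with OMV-SIRP that missed the threshold. Without PBS replicate 2, Tapbp fell by 0.36 with OMV-SIRP-G (adjusted p 0.0138) and by 0.37 with OMV-SIRP (adjusted p 0.00607). Tap2 averaged 21.6 ± 1.93, 23.5 ± 1.43 and 30.3 ± 7.84 FPKM in OMV-SIRP-G, OMV-SIRP and PBS libraries, and did not pass the test in either comparison. The sum of 6 GMP markers was also lower in treated monocyte libraries. It was 224 to 269 FPKM with OMV-SIRP-G, 417 to 471 with OMV-SIRP and 778 to 1760 with PBS. Of these 6, 3 were called lower with OMV-SIRP-G against PBS, and 2 were called lower and 1 higher with OMV-SIRP. The monocyte markers summed to 1430 to 1600, 1530 to 1640 and 1690 to 1720 FPKM in the same order of treatments. The part of these markers in the result was not tested.

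In GMP the direction of Tap1 was the opposite with OMV-SIRP. Tap1 had 30.6, 31.7 and 31.3 FPKM in OMV-SIRP-G libraries, 39.2, 38.02 and 36.96 in OMV-SIRP libraries and 32.2, 31.4 and 34.1 in PBS libraries. The OMV-SIRP libraries were above both other groups, which overlapped. Tap1 rose by 0.22 ± 0.05 with OMV-SIRP against PBS (limma adjusted p 0.0106, held without any single library but 0.0704 with library totals in place of the authors' scaling). With OMV-SIRP-G it fell by 0.28 ± 0.05 against OMV-SIRP (adjusted p 0.0039) and its change against PBS was -0.06 ± 0.05 (adjusted p 0.465). Tap2 averaged 44.95 ± 3.05, 44.2 ± 1.32 and 43.1 ± 1.88 FPKM and Tapbp 60.7 ± 2.903, 67.1 ± 3.21 and 68.04 ± 3.41 FPKM in OMV-SIRP-G, OMV-SIRP and PBS libraries, and neither passed the test. Tap1 made up 41 ± 2.01%, 46.2 ± 1.47% and 43 ± 1.32% of Tap1 plus Tap2 FPKM in these groups. In MC38 TAM the same share was 62.5 ± 1.63%, 68.5 ± 5.34% and 72 ± 4.25%, lower with OMV-SIRP-G than with PBS in every library. Neutrophil granule markers summed to 11000 to 11600, 18600 to 18900 and 8540 to 11400 FPKM in GMP libraries, and the sum was highest with OMV-SIRP. Of the 6 markers, 6 were called higher with OMV-SIRP against PBS. With OMV-SIRP-G against OMV-SIRP, 4 of them were called lower and 2 higher. Their part in the result was not tested.

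In B16 TAM the transporter genes did not pass the test in any comparison. Tap1 averaged 61.97 ± 4.85 FPKM with OMV-SIRP-G, 57.7 ± 2.73 with OMV-SIRP and 55.7 ± 5.35 with PBS, and Tap2 28.4 ± 0.578, 27.9 ± 5.36 and 30.2 ± 2.24. Tapbp had 84.95, 89.6 and 85.4 FPKM in OMV-SIRP-G libraries, 66.2, 70.6 and 86.2 in OMV-SIRP libraries and 60.4, 67.1 and 72.3 in PBS libraries. OMV-SIRP-G did not overlap with PBS, and the change of 0.38 ± 0.12 had a limma adjusted p of 0.0632. OMV-SIRP replicate 3 was the highest of its group for 9 of the 10 genes.

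Psmb8, Psmb9 and Psmb10 are the catalytic subunits that turn a standard proteasome into an immunoproteasome, and Psmb8 and Psmb10 had the largest changes of the 10 genes against PBS in MC38 TAM. Psmb8 had 77.1, 73.6 and 73.5 FPKM in OMV-SIRP-G libraries, 35.6, 48.5 and 49.8 in OMV-SIRP libraries and 14.4, 20 and 18.02 in PBS libraries. The 3 groups were fully separated, with OMV-SIRP between the others, and the mean with OMV-SIRP-G was 4.28 times that with PBS. Psmb8 rose by 2.05 ± 0.18 with OMV-SIRP-G (limma adjusted p 0.000328) and by 1.30 ± 0.18 with OMV-SIRP (adjusted p 0.00372). Psmb10 had 70.8, 71.5 and 57.5 FPKM in OMV-SIRP-G libraries, 55.98, 97.5 and 53.5 in OMV-SIRP libraries and 20.98, 23.9 and 13.6 in PBS libraries. Both treated groups were above PBS and overlapped with each other, and Psmb10 rose by 1.75 ± 0.28 with OMV-SIRP-G (adjusted p 0.00345) and by 1.75 ± 0.28 with OMV-SIRP (adjusted p 0.00624). Psmb9 had 29.1, 32.7 and 33.1 FPKM in OMV-SIRP-G libraries, 21.4, 40.4 and 20.7 in OMV-SIRP libraries and 8.72, 14.03 and 10.7 in PBS libraries. OMV-SIRP replicate 2 was the highest of the 9, and Psmb9 rose by 1.44 ± 0.27 with OMV-SIRP-G (adjusted p 0.00724) and by 1.18 ± 0.27 with OMV-SIRP (adjusted p 0.0264, up to 0.0793 without PBS replicate 1 or 3, and 0.0558 with library totals). Psmb8 and Psmb10 kept their calls in both comparisons without any single library and with library totals in place of the authors' scaling. Macrophage and NK cell markers were higher in the same treated libraries, as given above, T cell markers were highest with OMV-SIRP-G and mitochondrial shares differed between the groups, and their part in the result was not tested.

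Each of these subunits replaces a constitutive partner, Psmb8 replacing Psmb5, Psmb9 replacing Psmb6 and Psmb10 replacing Psmb7, and with all libraries the partners did not change in any of the 12 comparisons. In MC38 TAM, Psmb7 averaged 21.4 ± 1.64 FPKM with OMV-SIRP-G, 21.1 ± 7.52 with OMV-SIRP and 22.7 ± 3.02 with PBS. Psmb10 made up 76.7%, 75.7% and 74.5% of Psmb10 plus Psmb7 FPKM in OMV-SIRP-G libraries, 78.7%, 84.1% and 64.4% in OMV-SIRP libraries and 45.8%, 49.9% and 41.3% in PBS libraries. The OMV-SIRP-G libraries lay among the group means of the other populations, which ran between 74.2% and 84.6%, and the PBS libraries lay below all of them. Psmb8 made up 40.7 ± 1.68%, 37.3 ± 11.5% and 24.4 ± 6.41% of its pair with OMV-SIRP-G, OMV-SIRP and PBS, and Psmb9 30.4 ± 3.15%, 30.4 ± 12.2% and 15 ± 5.09% (SD, n = 3 each). For both, OMV-SIRP-G did not overlap with PBS, while OMV-SIRP overlapped with PBS for Psmb8 and not for Psmb9. Psmb5 averaged 109 ± 9.08, 79.98 ± 30.5 and 57.1 ± 21.2 FPKM in the same order, a change with OMV-SIRP-G of 0.98 ± 0.33 that missed the threshold (limma adjusted p 0.0638). Without OMV-SIRP replicate 2 and PBS replicate 3, Psmb5 rose by 0.74 with OMV-SIRP-G (adjusted p 0.0291), and Psmb6 and Psmb7 were again not called.

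**Figure D5:**
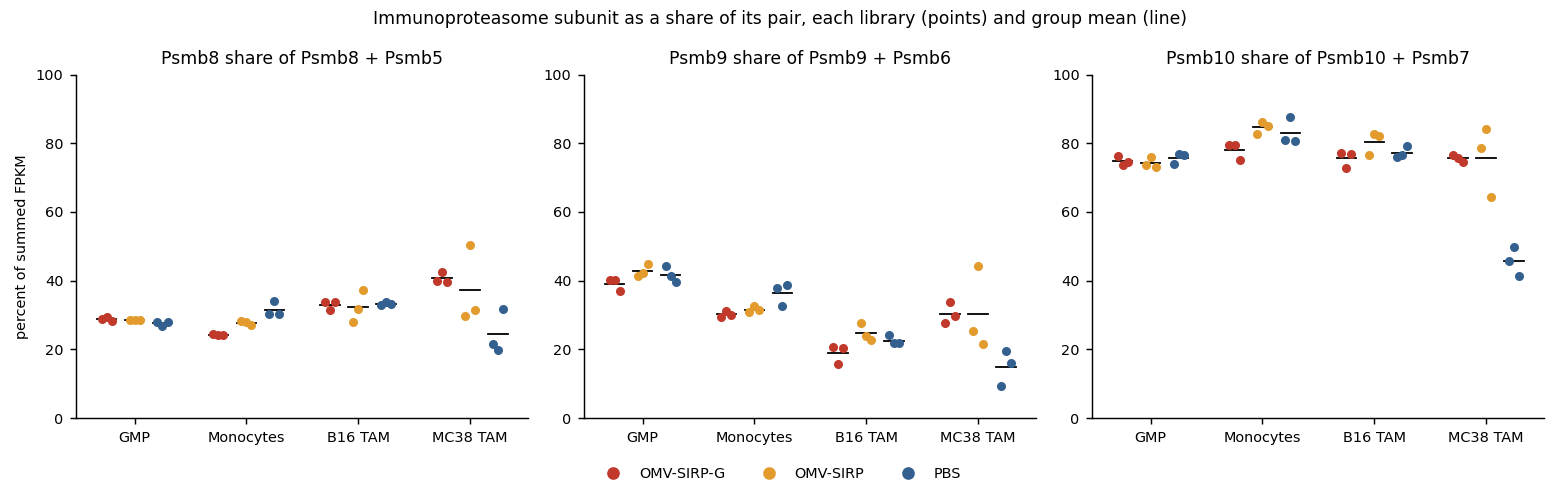
Share of the immunoproteasome subunit in the summed FPKM of its pair with the constitutive subunit, in percent, in each library (points) with group means (lines), for OMV-SIRP-G, OMV-SIRP and PBS. The Psmb10 share is 41.3% to 49.9% in MC38 TAM PBS libraries and at least 64.4% in the other libraries drawn.

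Outside MC38 TAM, 1 of the immunoproteasome genes changed, Psmb9 in GMP. Psmb9 had 20.7, 19.98 and 19.5 FPKM in OMV-SIRP-G libraries, 23.8, 25.4 and 27.8 in OMV-SIRP libraries and 18.5, 21.3 and 21.4 in PBS libraries. The OMV-SIRP libraries were above both other groups, as they were for Tap1, whose promoter Psmb9 shares. Psmb9 rose by 0.32 ± 0.07 with OMV-SIRP against PBS (limma adjusted p 0.0141, and 0.0536 without OMV-SIRP replicate 3). With OMV-SIRP-G it fell by 0.34 ± 0.07 against OMV-SIRP (adjusted p 0.0124), and its change against PBS was -0.02 ± 0.07 (adjusted p 0.892). Psmb8 averaged 30.9 ± 0.349, 34.8 ± 0.291 and 30.9 ± 3.48 FPKM with OMV-SIRP-G, OMV-SIRP and PBS, and Psmb10 34.2 ± 1.397, 38.1 ± 2.06 and 38.2 ± 5.65. Neither passed the test, although Psmb8 rose by 0.25 with OMV-SIRP once PBS replicate 3 was left out (adjusted p 0.00944), and Psmb10 fell by 0.27 with OMV-SIRP-G once PBS replicate 1 was left out (adjusted p 0.0196).

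In monocytes none of the 3 subunits passed the test, with PBS replicate 2 far above the other libraries. Psmb10 had 54.5, 44.9 and 52.9 FPKM in OMV-SIRP-G libraries, 62.05, 73.95 and 75.8 in OMV-SIRP libraries and 58.1, 162 and 60.2 in PBS libraries. Its lowest value with OMV-SIRP was above its highest with OMV-SIRP-G, and without PBS replicate 2 it fell by 0.47 with OMV-SIRP-G against OMV-SIRP (limma adjusted p 0.0105). Psmb8 had 33.1, 28.2 and 38.1 FPKM with OMV-SIRP-G, 35.1, 37.3 and 39.3 with OMV-SIRP and 39.8, 112 and 35.6 with PBS, with PBS replicate 2 the highest of the 9. Psmb9 had 17.8, 16.2 and 20.3 FPKM with OMV-SIRP-G, 18.1, 19.3 and 20.5 with OMV-SIRP and 21.5, 48.1 and 22.01 with PBS, and all 6 treated libraries were below PBS. As a share of Psmb8 plus Psmb5, Psmb8 made up 24.3 ± 0.19%, 27.8 ± 0.55% and 31.5 ± 2.24% with OMV-SIRP-G, OMV-SIRP and PBS, and these 3 groups did not overlap, with 30.2% and 30.3% in the other 2 PBS libraries. In B16 TAM, Psmb8 averaged 63.4 ± 5.29, 62.7 ± 15.3 and 63.8 ± 12.7 FPKM, Psmb9 37.3 ± 5.58, 39.7 ± 7.67 and 33.2 ± 3.64, and Psmb10 95.2 ± 8.18, 96.6 ± 25.9 and 79.5 ± 5.88, in the same order of treatments. None of the 3 passed the test there.

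Nlrc5, the coactivator that works on class I promoters, was the lowest of the 10 genes in 33 of the 36 libraries. In MC38 TAM it had 31.3, 25.7 and 30.2 FPKM in OMV-SIRP-G libraries, 16.3, 27.7 and 12.1 in OMV-SIRP libraries and 10.5, 12.5 and 14.5 in PBS libraries. The OMV-SIRP-G libraries were above PBS, and OMV-SIRP replicate 2 stood among them while the other 2 OMV-SIRP libraries were near PBS. Nlrc5 rose by 1.16 ± 0.28 with OMV-SIRP-G (limma adjusted p 0.0191), a call lost without any OMV-SIRP-G library or without PBS replicate 1, with adjusted p up to 0.0738. With OMV-SIRP its change was 0.48 ± 0.28 (adjusted p 0.293). In GMP it had 4.003, 4.36 and 3.96 FPKM in OMV-SIRP-G libraries, 4.74, 4.44 and 4.54 in OMV-SIRP libraries and 6.197, 5.13 and 4.68 in PBS libraries. OMV-SIRP-G lay below PBS without overlap, and Nlrc5 fell by 0.30 ± 0.08 (adjusted p 0.0473). That call was lost without any OMV-SIRP-G library or without PBS replicate 1 or 2, with adjusted p up to 0.136. It was also lost with no filter on low values (adjusted p 0.113), with library totals (0.0569) and in a fit of the compared groups alone (0.104).

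In monocytes Nlrc5 ran against the rest of the pathway in 1 library. It had 7.31, 7.92 and 7.02 FPKM in OMV-SIRP-G libraries, 8.78, 8.55 and 8.55 in OMV-SIRP libraries and 12.3, 4.91 and 11.7 in PBS libraries, and PBS replicate 2 was the lowest of the 9. With that library in the fit the changes were -0.25 ± 0.28 with OMV-SIRP-G and -0.05 ± 0.28 with OMV-SIRP (limma adjusted p 0.681 and 0.935). Without it Nlrc5 fell by 0.63 with OMV-SIRP-G (adjusted p 0.000708) and by 0.43 with OMV-SIRP (adjusted p 0.00253). In B16 TAM it averaged 8.27 ± 0.622, 7.92 ± 1.89 and 8.36 ± 0.391 FPKM with OMV-SIRP-G, OMV-SIRP and PBS, and did not pass the test.

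The gap between OMV-SIRP-G and OMV-SIRP in MC38 TAM was uneven across the pathway. The log2 difference was 0.87 ± 0.21 for Tap2 (limma adjusted p 0.152), 0.74 ± 0.18 for Psmb8 (adjusted p 0.152), 0.68 ± 0.28 for Nlrc5 (adjusted p 0.376) and 0.59 ± 0.18 for Tapbp (adjusted p 0.239), and it was -0.0031 ± 0.28 for Psmb10 (adjusted p 0.999) and -0.03 ± 0.15 for B2m (adjusted p 0.969). None of these passed the test with all 9 libraries. OMV-SIRP replicate 2 was the highest of its group for 9 of the 10 genes. Without it Tapbp rose by 0.77 (adjusted p 0.0492). With PBS replicate 3 left out as well, Tap1 rose by 0.73, Tap2 by 0.99, Tapbp by 0.77 and Nlrc5 by 1.00 (adjusted p 0.0249, 0.0409, 0.0302 and 0.0309).

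Other genes of the pathway were followed in lists. Beside the shares of genes that rose, given above, the shares of all genes tested that fell against PBS were 6.86% with OMV-SIRP-G and 3.49% with OMV-SIRP in MC38 TAM. They were 7.28% with OMV-SIRP-G and 0.566% with OMV-SIRP in B16 TAM, where 0.885% rose with OMV-SIRP, and 5.22% with OMV-SIRP-G and 7.52% with OMV-SIRP in GMP. Of 15 further class I and class I-like chains, 12 were tested in MC38 TAM, and 7 rose with OMV-SIRP-G and 1 with OMV-SIRP against PBS, with list medians of 1.02 and 0.40. Without OMV-SIRP replicate 2 and PBS replicate 3 the counts were 7 and 3, where 20.2% and 10.2% of all genes rose. H2-Q6, a Qa-region chain, averaged 286 ± 1.44 FPKM with OMV-SIRP-G, 140.1 ± 52.2 with OMV-SIRP and 101 ± 22.2 with PBS, and rose by 1.51 ± 0.26 with OMV-SIRP-G (limma adjusted p 0.005). H2-T23, which encodes the nonclassical chain Qa-1, rose by 1.5 ± 0.28 (adjusted p 0.00677). In monocytes 7 of 10 tested chains fell with OMV-SIRP and 1 with OMV-SIRP-G, with medians of -0.82 and -0.50. Without PBS replicate 2 the counts were 8 with OMV-SIRP and 4 with OMV-SIRP-G, in a fit in which 17.4% and 6.82% of all genes fell. H2-T24 averaged 14.8 ± 0.211 FPKM with OMV-SIRP-G, 14.4 ± 1.53 with OMV-SIRP and 36.3 ± 10.2 with PBS, and fell by 1.20 ± 0.20 (adjusted p 0.0151) and 1.24 ± 0.20 (adjusted p 0.00897). In GMP 3 of 11 rose and 2 fell with either treatment, H2-Q7 rising by 0.42 ± 0.06 with OMV-SIRP-G and 0.73 ± 0.06 with OMV-SIRP (adjusted p 0.00224 and 5.92e-05). H2-T24 fell there by 0.48 ± 0.06 with OMV-SIRP-G and 0.73 ± 0.06 with OMV-SIRP (adjusted p 0.00105 and 6.93e-05). In B16 TAM, H2-Q6 fell with both treatments, by 0.83 ± 0.13 with OMV-SIRP-G and 0.64 ± 0.13 with OMV-SIRP (adjusted p 0.00174 and 0.0359), in libraries where H2-D1 and B2m rose with OMV-SIRP-G. H2-M3 and H2-T24 rose there with OMV-SIRP-G, so 2 of 11 rose and 1 fell, against 1 fall with OMV-SIRP. These chains are close relatives and reads may be split between them.

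The peptide-loading partners of the endoplasmic reticulum, 9 chaperones, editors and translocon subunits that also serve other proteins, did not follow the members in MC38 TAM. There 1 rose and 3 fell with OMV-SIRP-G, and 3 fell with OMV-SIRP. Canx, the lectin chaperone calnexin, averaged 83.5 ± 3.999 FPKM with OMV-SIRP-G, 102 ± 6.27 with OMV-SIRP and 152 ± 22.03 with PBS, and fell by 0.85 ± 0.14 and 0.56 ± 0.14 (limma adjusted p 0.00464 and 0.0379). Tapbpl, the tapasin-related peptide editor, rose by 1.21 ± 0.33 with OMV-SIRP-G (adjusted p 0.0326). In B16 TAM 3 of the 9 rose with OMV-SIRP-G, Hspa5 by 0.45 ± 0.09, Pdia3 by 0.48 ± 0.10 and Calr by 0.43 ± 0.09 (adjusted p 0.00764, 0.00841 and 0.0109), and 0 with OMV-SIRP. Pdia3 and calreticulin sit with tapasin in the loading complex. In GMP 2 rose (Hspa5 and Calr) and Tapbpl fell with OMV-SIRP-G, 1 rose with OMV-SIRP, and in monocytes 0 of 9 changed with either, although 2 rose with OMV-SIRP without PBS replicate 2, where 12.6% of all genes rose.

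The proteasome beyond the catalytic exchange was split. None of the 11 other core subunits changed in any comparison with all libraries, and without monocyte PBS replicate 2 the core subunit Psma5, named here after its value was seen, fell with OMV-SIRP (log2 change -0.35, limma adjusted p 0.0178). In that fit 17.4% of all genes fell. Of 4 proteasome activator and assembly genes, 2 rose with OMV-SIRP against PBS in the same fit, where 12.6% of all genes rose. With OMV-SIRP-G against OMV-SIRP, 2 of these 4 fell in it, where 8.17% of all genes fell. The activator genes Psme1 and Psme2 encode the 2 chains of PA28, a cap that interferon gamma induces. In MC38 TAM, Psme2 averaged 86.4 ± 8.95 FPKM with OMV-SIRP-G, 45.8 ± 11.9 with OMV-SIRP and 9.88 ± 6.75 with PBS, and rose by 3.17 ± 0.37 and 2.24 ± 0.37 (limma adjusted p 0.001 and 0.00704). Psme1 rose by 1.60 ± 0.22 and 1.34 ± 0.22 (adjusted p 0.00207 and 0.00756). Psme3, which forms a separate nuclear cap, fell by 0.77 ± 0.12 and 0.69 ± 0.12 (adjusted p 0.00345 and 0.00914). In GMP, Psme1 fell by 0.35 ± 0.08 with OMV-SIRP-G against OMV-SIRP (adjusted p 0.0178), in the direction of Tap1 and Psmb9.

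Among 15 genes of interferon and NF-kB signalling to class I, Irf1, an interferon-induced activator that binds IRF motifs, stood out in MC38 TAM. There it averaged 58.6 ± 3.26 FPKM with OMV-SIRP-G, 20.7 ± 5.23 with OMV-SIRP and 14.3 ± 1.17 with PBS. It rose by 1.96 ± 0.20 against PBS (limma adjusted p 0.000597) and by 1.49 ± 0.20 against OMV-SIRP (adjusted p 0.0234), a comparison in which 0.149% of genes rose and none of the 10 class I genes passed. In all, 3 of 14 tested rose with OMV-SIRP-G and 0 with OMV-SIRP, and without OMV-SIRP replicate 2 and PBS replicate 3 the counts were 6 rising with OMV-SIRP-G, and 2 rising and 1 falling with OMV-SIRP. In monocytes 3 of 13 fell with OMV-SIRP-G and 4 with OMV-SIRP (4 and 5 without PBS replicate 2, with 1 rising in each), among them Stat2, by 1.14 ± 0.17 and 1.04 ± 0.17, and Irf9, by 0.67 ± 0.09 and 0.58 ± 0.09 (adjusted p 0.00833, 0.00925, 0.00439 and 0.00671). In GMP with OMV-SIRP, Irf1 rose by 0.35 ± 0.05 (adjusted p 0.00119) and Irf9 fell by 0.41 ± 0.07 (adjusted p 0.00335), 1 rising and 3 falling of 13, and with OMV-SIRP-G 2 rose and 2 fell. In B16 TAM 6 of 15 rose and 1 fell with OMV-SIRP-G, Ifnar2 rising by 0.94 ± 0.13 and Stat2 by 0.93 ± 0.16 (adjusted p 0.00116 and 0.0038), and Irf9 rose with OMV-SIRP. Of 8 subunits of the complex that Nlrc5 joins at class I promoters, Rfxap rose in MC38 TAM with OMV-SIRP-G, and Rfxap and Nfyb rose in GMP with OMV-SIRP and fell with OMV-SIRP-G against OMV-SIRP. In monocytes Nfyb fell with OMV-SIRP, by 0.40 ± 0.10 (adjusted p 0.0452).

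MHC class II molecules present peptides to CD4 T cells. In B16 TAM all 7 class II genes of the list rose with OMV-SIRP against PBS, with a median of 0.92, where 0 of the 10 class I genes changed. With OMV-SIRP-G against PBS 0 of the 7 changed, with a median of 0.30. With OMV-SIRP-G against OMV-SIRP 5 of the 7 fell, where 5.62% of genes fell and H2-K1, H2-D1 and B2m rose. In MC38 TAM all 7 rose with both treatments, with medians of 3.88 with OMV-SIRP-G and 3.74 with OMV-SIRP, in the libraries in which macrophage markers were higher than in PBS. In monocytes 3 of the 7 rose with OMV-SIRP, where 3.07% of genes rose, and 0 with OMV-SIRP-G. Without PBS replicate 2, 7 of the 7 rose with OMV-SIRP and 4 with OMV-SIRP-G, where 12.6% and 5.66% of all genes rose. The medians were then 1.39 and 0.66. In that fit 5 of the 7 fell with OMV-SIRP-G against OMV-SIRP, where 8.17% of all genes fell. In GMP 5 of 6 tested rose with OMV-SIRP-G and 4 with OMV-SIRP.

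The genes whose changes ran closest to the median of the 10 over the 8 comparisons with PBS, among 6634 genes with a mean FPKM of at least 5, were Myl12a, Uba7, Tma7, Lin37 and Arf5. Their root mean square log2 differences from that median were 0.0947, 0.122, 0.123, 0.127 and 0.136. Uba7, which encodes the enzyme that activates ISG15, had log2 changes of 1.00 with OMV-SIRP-G and 0.29 with OMV-SIRP in MC38 TAM, and of -0.42 and -0.35 in monocytes. Of the members, Tap1 was the closest, at 0.141 and rank 7, and Psmb10 the farthest, at 0.509 and rank 2576. B2m stood at rank 1905. Many genes outside the pathway thus ran closer to the members' median than most members did. The 2 comparisons of a population share their PBS libraries.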

How the data were processed

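RNA of 36 libraries was prepared with TRIzol and an mRNA library kit (NEBNext), per the labels' protocols. HISAT2 2.0.5, StringTie and featureCounts 1.5.0-p3 with GRCm38 are named, per the submitters' processing notes, without their roles. The authors deposited FPKM in 3 tables, 1 for GMP and monocytes, 1 for B16 TAM and 1 for MC38 TAM, each scaled on its own, so tests were made within a population only. FPKM times gene length fell on whole multiples of 1 read for 100% of values (tolerance 0.05 reads), which gave read counts and library totals, and the deposited FPKM include a scaling between libraries of 0.768 to 1.203 times the total. The 3 replicates of a group limit the precision.

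Genes with FPKM of at least 1 in at least 3 of the 9 libraries of a population were tested on log2(FPKM + 1) with limma 3.58.1 (empirical Bayes with a mean trend and robust priors, statmod 1.5.0, R 4.3.3), all 3 treatments in 1 fit. P-values were adjusted over all genes by Benjamini-Hochberg, with calls under 0.05. A fold change on this scale understates that of low genes. The fit was tested on simulated data. Alternatives were a pseudocount of 0.1, no filter, library totals in place of the deposited scaling, a fit of the compared groups alone, the replicate number as a block, voom weights for the recovered reads, and each library left out in turn. Samples were grouped by their labels.

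The 10 genes and the partner lists were chosen with earlier results of these data known, so their counts are descriptions. All 10 are named in every population, from a partner list at most the 3 genes with the lowest adjusted p in a comparison, and 5 genes by likeness; 1 partner gene that this rule picks is not reported here. Promoter windows are from RefSeq (GRCm38.p6), and motifs were searched on both strands.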

Additional observations from a re-analysis of the deposited data

Results flagged for a closer look

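In 22 cases a gene had log2 changes of opposite sign in 2 populations under the same comparison, with all libraries of the first group above those of the second in one population and all below in the other. Such cases were not counted over all genes, so the number 22 has no background and is not a trait of these 10 genes. The differences themselves were not tested, since the tables were scaled separately, and each value below is the gap between the log2 changes of the 2 populations. Most of them set another population against monocytes, where PBS replicate 2 was high for 9 of the 10 genes, and the changes of several of these genes without that library are given above.

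With OMV-SIRP against PBS, H2-D1 was 0.66 higher in GMP and 1.00 higher in MC38 TAM than in monocytes, and B2m was 0.70 higher in GMP. The gap for Tap1 was 1.03 for GMP and 1.37 for MC38 TAM, and that for Psmb9 was 0.86 for GMP and 1.72 for MC38 TAM, both against monocytes. With OMV-SIRP-G against PBS and monocytes as the lower population, the gap was 0.56 for B2m in GMP and 0.94 in B16 TAM. In MC38 TAM it was 1.63 for Tap1, 2.09 for Tap2, 1.40 for Tapbp, 2.07 for Psmb9 and 2.45 for Psmb10. In B16 TAM it was 0.94 for Tapbp and 0.96 for Psmb10.

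With GMP as the lower population under OMV-SIRP-G against PBS, Tapbp had a gap of 0.54 in B16 TAM and 1.00 in MC38 TAM, and Nlrc5 had 1.47 in MC38 TAM. With OMV-SIRP-G against OMV-SIRP, the gap to GMP was 0.58 for H2-K1 in B16 TAM, 0.35 for H2-K1 in MC38 TAM and 0.91 for Psmb8 in MC38 TAM.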

How the results depend on the processing

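For 120 log2 changes of a member, 1480 values were computed under the alternatives, of which 1395 kept their direction and their side of the threshold or stayed uncalled, 65 lost a call, 20 gained one and 0 called values reversed. Counts of members called moved as follows. With OMV-SIRP against PBS in GMP the count was 1 with library totals. With OMV-SIRP-G against PBS in GMP it was 1 with no filter and with library totals, and 0 with the compared groups alone and with the replicate block. In monocytes with OMV-SIRP-G against PBS it was 0 with no filter, with the compared groups alone and with the block, and against OMV-SIRP it was 1 with the compared groups alone and without PBS replicate 2. In B16 TAM with OMV-SIRP-G against PBS it was 4 with the compared groups alone and with voom. In MC38 TAM with OMV-SIRP against PBS it was 3 with no filter and 2 with library totals or the compared groups alone, and OMV-SIRP-G against OMV-SIRP gave 4 without both libraries that stood apart. The cause was not tested, except that a fit of the compared groups alone has fewer samples.

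Counts of all genes called moved with no filter to 154 in monocytes and 16 in MC38 TAM (OMV-SIRP-G against OMV-SIRP), 112 and 925 in B16 TAM (OMV-SIRP against PBS, OMV-SIRP-G against OMV-SIRP), and 1725 and 762 in MC38 TAM (OMV-SIRP-G and OMV-SIRP against PBS). With the compared groups alone they were 177, 284 and 2118 in monocytes (OMV-SIRP-G and OMV-SIRP against PBS, OMV-SIRP-G against OMV-SIRP) and 409 in MC38 TAM (OMV-SIRP against PBS). MC38 TAM gave 2332 with library totals (OMV-SIRP against PBS), 93 with voom (OMV-SIRP-G against OMV-SIRP), and 4701 and 644 without both libraries (OMV-SIRP-G against PBS and OMV-SIRP). Monocytes gave 2516 without PBS replicate 2 (OMV-SIRP-G against OMV-SIRP).

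Library totals changed the split of higher and lower calls. In GMP it became 821 to 1825, in place of 1308 to 924, with OMV-SIRP against PBS, and 1344 to 606, in place of 823 to 998, between the preparations. With OMV-SIRP against PBS it became 675 to 406, in place of 369 to 657, in monocytes and 697 to 1635, in place of 1042 to 492, in MC38 TAM. In MC38 TAM it became 1551 to 1431, in place of 1843 to 966, with OMV-SIRP-G against PBS, and 28 to 20, in place of 21 to 33, between the preparations. In monocytes between the preparations it became 142 to 188, in place of 191 to 102.

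Same-numbered libraries are not said to be paired, and their deviations correlated at -0.37 to 0.25. With the replicate block the gene counts that moved were 242 and 520 in monocytes (OMV-SIRP-G and OMV-SIRP against PBS), 75 in monocytes and 8 in MC38 TAM (OMV-SIRP-G against OMV-SIRP).

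Leaving out 1 library gave, for OMV-SIRP-G against PBS, 0 to 2 members and 892 to 1882 genes in GMP, 0 to 3 and 202 to 1479 in monocytes, 1 to 2 and 1177 to 1470 in B16 TAM, and 6 to 9 and 1262 to 2679 in MC38 TAM. For OMV-SIRP against PBS it gave 1 to 4 and 1390 to 2144 in GMP, 1 to 4 and 366 to 3563 in monocytes, 0 to 0 and 73 to 144 in B16 TAM, and 3 to 5 and 728 to 2002 in MC38 TAM. For OMV-SIRP-G against OMV-SIRP it gave 2 to 2 and 1068 to 1333 in GMP, 0 to 1 and 59 to 2516 in monocytes, 2 to 3 and 1005 to 1327 in B16 TAM, and 0 to 1 and 0 to 189 in MC38 TAM. Leaving out both MC38 TAM libraries together, the monocyte comparison of the preparations without PBS replicate 2, and the list counts without these libraries were chosen after seeing the data. With 3 libraries a group, changes well under the spread of MC38 TAM or monocyte PBS libraries were not detectable.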
